A study of Lemna aequinoctialis with 6 samples.

Results

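Receptor-like protein kinases were described in the duckweed Lemna aequinoctialis, a tiny plant that floats on still water, grown without and with indole-3-propionic acid (IPA). Members were the transcripts that the authors had listed as changed by IPA and whose gene description named a receptor-like, wall-associated, leucine-rich repeat, lectin, cysteine-rich or proline-rich kinase, a leaf rust kinase or a receptor-like protein. Brassinosteroid receptor kinases, histidine kinases and ethylene receptors were left out by the rule, which removed 1 of 225 matches. This gave 224 transcripts of 98 Trinity genes (a Trinity gene is a cluster of transcripts that the assembler Trinity built from the reads), out of 5093 transcripts on the authors' list and 81787 transcripts of 28620 Trinity genes measured. That list held 6.23% of all transcripts. The word kinase stood in 223 of the 224 descriptions, the exception being Receptor-like protein 36. Descriptions existed only for transcripts on that list, so receptor kinases that the authors did not list could not be counted. Because the list was made from the same contrast, the IPA and control values below are a description of the members and not a test of them.

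Receptor-like kinases sit in the plasma membrane with an outer domain that binds a ligand, a single membrane pass and a kinase inside the cell. Plants use them to read peptide hormones, cell wall fragments, sugars from microbes and the state of the wall, and the type of outer domain (ectodomain) is the usual basis for sorting them. Leucine-rich repeat ectodomains mostly bind peptides or partner receptors, lectin and LysM ectodomains are tied to sugars, wall-associated kinases bind pectin, and malectin-like receptors such as FERONIA bind small peptides called RALFs. What is known of these proteins comes mainly from Arabidopsis and rice, and the names below are those of the closest database protein.

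There were 3 control samples and 3 samples treated with IPA, an indole acid whose side chain is longer than that of the natural auxin. All came from lyophilised, ground plants, and the sources used here give neither dose nor duration. The comparison addressed which transcripts differ between treated and untreated plants, in a study of growth and metabolite yield. Whether the samples were separate cultures is not in the labels, so spreads between them may be technical. The libraries held 30149649 to 45233584 reads, and 1 read was worth 0.0205 to 0.0318 of the normalised read count used here as the level. Among reads, the share of the top 20 transcripts was 29.8, 35.2 and 15.9% in control 1, 2 and 3, against 8.21, 10.1 and 7.84% in IPA 1, 2 and 3. The part of this difference in composition in the results below was not tested. Levels were not divided by transcript length, so they compare libraries and not transcripts. Each fold change is the log2 ratio of IPA to control with its standard error, from limma on log2(normalised read count + 0.5), a scale that understates the change of low transcripts.

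Of the 224 members, 85 were higher and 139 lower in IPA in the authors' deposited table, where 3.16 and 3.07% of all transcripts stood in each direction. Members that were higher had a median log2 fold change of 1.15, and those that were lower a median of -1.06. The same medians over the whole list were 1.14 for 2586 rising and -1.09 for 2507 falling transcripts, so the members' changes were of the usual size for that list. All 224 passed the filter on low values, limma's adjusted p was below 0.05 for 144 of them (68 higher and 76 lower) against 8.37% of all transcripts tested (4.49% higher and 3.87% lower), and since the list chose them nothing is read from this. The quasi-likelihood fit of edgeR to whole reads called 143 members, 63 higher and 80 lower, against 8.12% of all transcripts. The 3 IPA values lay above all 3 control values in 82 members and below them in 123 (16.6 and 16.3% of all transcripts), and the groups overlapped in 19. The count of members called by limma rested on single libraries. It was 26 without IPA 2, 39 without control 2, 56 without IPA 3 and 87 without IPA 1. Over all transcripts tested the calls also fell, from 6587 with all libraries to 1293, 1519, 2502 and 3570 in the same order. Without control 3 the number of members called lower was 120, and over all transcripts 10421 were called in either direction. In bulk plant RNA, fewer cells of a type and less RNA per cell cannot be told apart.

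**Figure D1:**
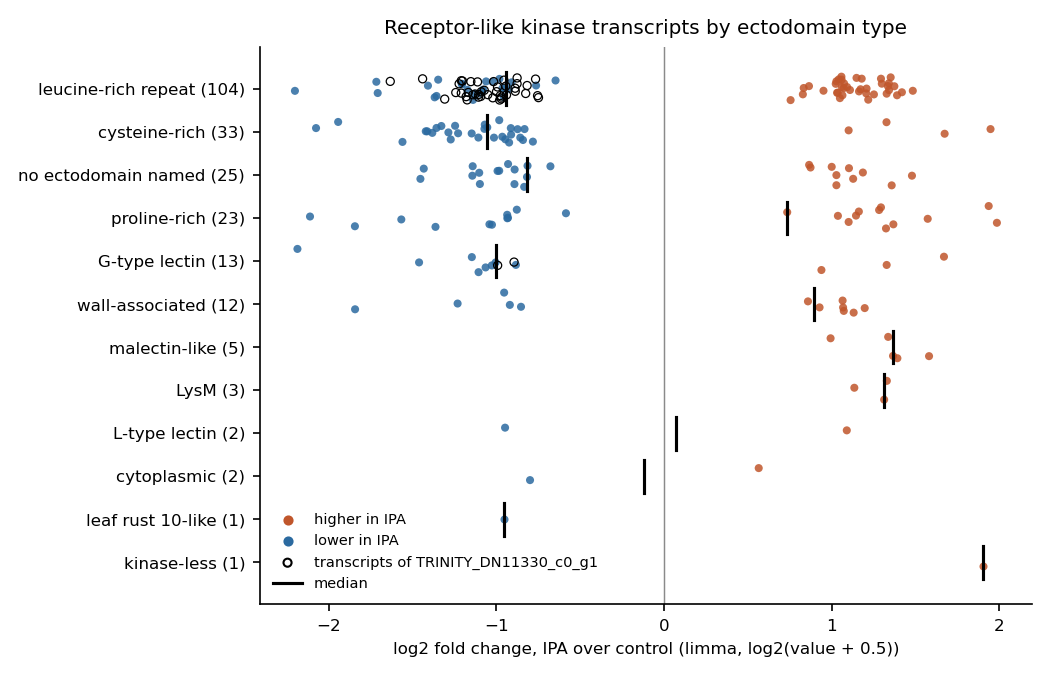
Each point is a member transcript, placed by its log2 fold change (IPA over control, limma on log2(value + 0.5), x axis) within its ectodomain type (y axis, number of transcripts in brackets), and black bars are medians. Leucine-rich repeat members split into 66 lower and 38 higher, and open circles mark the transcripts of the single Trinity gene TRINITY_DN11330_c0_g1, which hold most of the lower ones.

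Counted as transcripts, leucine-rich repeat kinases and the other types looked alike. Of 104 leucine-rich repeat members 63.5% were lower, and of 120 members of other types 60.8%, with median log2 fold changes of -0.94 and -0.88 beside 0.02 over all 78722 transcripts tested and 0.58 over the authors' list. Counted as genes, they differed in direction. No Trinity gene had members going both ways, so a gene is counted here by the direction of its members, whatever share of its level they hold. Of 34 genes with a leucine-rich repeat member 21 were higher and 13 lower, whereas of 67 genes with a member of another type 28 were higher and 39 lower. TRINITY_DN11330_c0_g1, TRINITY_DN13592_c0_g1 and TRINITY_DN5453_c0_g1 had members of both kinds and were counted on both sides, here and in the sums that follow. Summed over all isoforms, 18 of the 34 leucine-rich repeat genes passed limma's adjusted p of 0.05 as higher and 4 as lower, and of the 67 others 21 and 22, against 10.3% of all gene sums. In the whole list 1286 of 2424 genes were higher, 1126 lower and 12 mixed. With 1 transcript for each gene the median of the leucine-rich repeat members turned to 1.04, while that of the other types was -0.83. Since listed transcripts cluster at about 2-fold up or 2-fold down with a gap between, a median here says mainly which direction held more members. Whether the types differ was not tested, because the list used the same contrast.

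**Figure D2:**
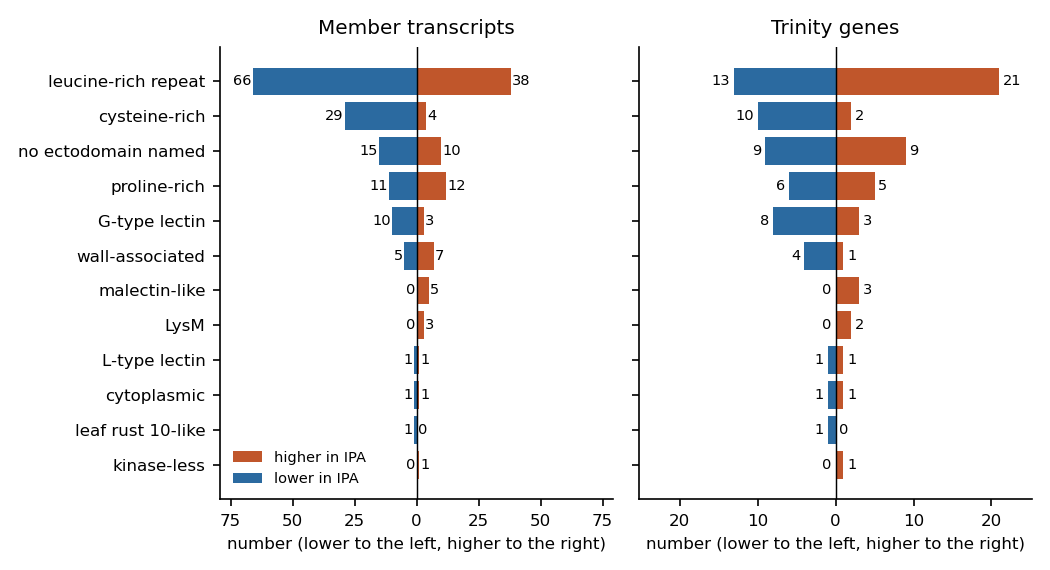
Bars give the number of member transcripts (left) and of their Trinity genes (right) by ectodomain type, lower in IPA to the left of 0 and higher to the right. The leucine-rich repeat type had 66 lower and 38 higher transcripts but 13 lower and 21 higher genes.

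The difference between the counts came from a single Trinity gene. TRINITY_DN11330_c0_g1 held 66 assembled transcripts, of which 43 were members and all 43 were lower. Its members were described as At1g53430 or At1g53440, a pair of related Arabidopsis kinases with leucine-rich repeats and a malectin domain, and in 2 cases as the G-type lectin kinase SD1-13. Summed over its isoforms it stood at 169, 67.1 and 56.4 in control 1, 2 and 3 and at 40.1, 32.4 and 19.5 in IPA 1, 2 and 3. The groups did not overlap, and control 1 was far above the other controls. The log2 fold change of the sum was -1.54 ± 0.40, and without control 1 it was -1.05. Without this gene 38 of the remaining 63 leucine-rich repeat members were higher and 25 lower, with a median of 1.03. Reads that match several of its isoforms could be split among them, so which isoforms changed is uncertain, and they are not independent observations. The 43 members held 69.7% of the gene's level in control and 61.7% in IPA.

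Transcripts described as At1g53430 or At1g53440 but from other Trinity genes went the opposite way. TRINITY_DN12446_c0_g1, also described as At1g53430 and At1g53440, had 4 transcripts, all members and all higher. Its sum stood at 54.9, 27.0 and 30.2 in control 1, 2 and 3 and at 68.8, 85.2 and 130 in IPA 1, 2 and 3 (log2 1.35 ± 0.30), so every treated library lay above every control. A further At1g53430 transcript, TRINITY_DN16580_c0_g1_i5, stood at 0.392, 0.382 and 0.275 in control and at 1.09, 1.45 and 1.71 in IPA. In all, 9 of the 27 descriptions found on more than 1 Trinity gene had members going both ways, each time from different genes. Among the 9 were RPK2, PERK13, wall-associated kinase-like 6 and 15, and SD1-1.

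Isoforms of the member genes that the authors had not listed mostly leaned the same way with smaller changes. There were 200 such isoforms beside the 224 members. In genes whose members were higher, 87.5% of 80 tested lay above 0 with a median log2 fold change of 0.49, and in genes whose members were lower 86.3% of 117 lay below 0 with a median of -0.56. They share reads with the members and come from the same libraries, so they are not independent of them. Sums over all isoforms of a gene passed limma's adjusted p of 0.05 in 38 of the 48 higher genes and in 25 of the 50 lower genes, against 10.3% of all gene sums, and these genes had been selected in the same contrast. All 48 higher genes had sums above 0, and 48 of the 50 lower genes had sums below 0.

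**Figure D3:**
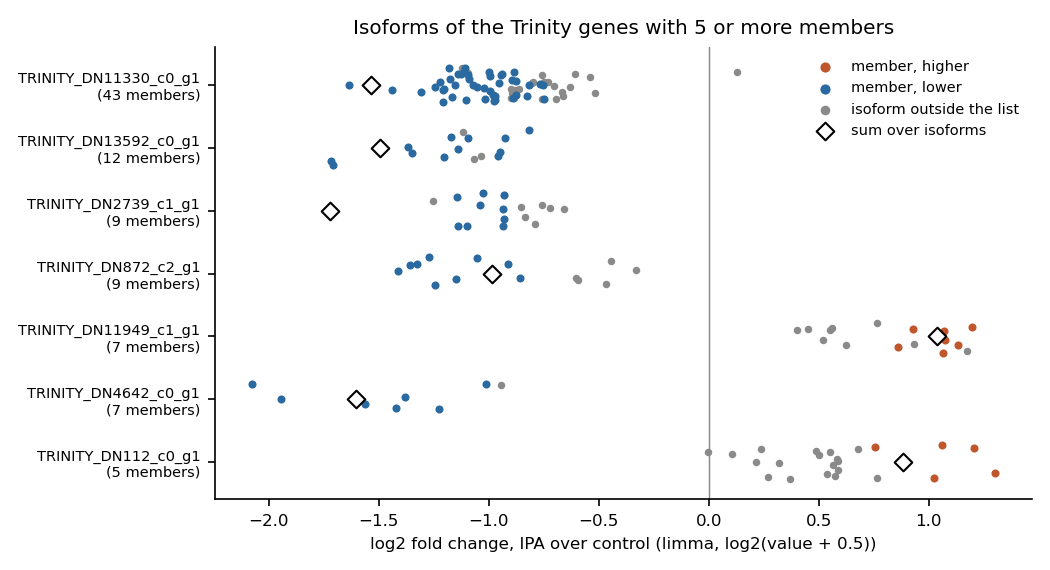
For the 7 Trinity genes with 5 or more members (y axis), coloured points are members, grey points isoforms outside the authors' list and diamonds the sum over all isoforms, placed by log2 fold change (IPA over control, x axis). Grey points lie mostly on the side of the members, with a single isoform at 0.13 in TRINITY_DN11330_c0_g1 above 0 and a single one in TRINITY_DN112_c0_g1 just below 0.

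The 7 genes with 5 or more members held 92 of the 224 transcripts, while 65 genes had a single member. Beside TRINITY_DN11330_c0_g1 they were TRINITY_DN13592_c0_g1, TRINITY_DN2739_c1_g1, TRINITY_DN872_c2_g1, TRINITY_DN4642_c0_g1, TRINITY_DN11949_c1_g1 and TRINITY_DN112_c0_g1. The first 4 of these had only lower members and the last pair only higher ones. The sum of TRINITY_DN13592_c0_g1 was 81.6, 39.4 and 17.9 in control 1, 2 and 3 and stood at 11.2, 12.9 and 16.7 in IPA 1, 2 and 3. Control 3 stood close to the treated libraries there, and the log2 fold change of -1.49 ± 0.44 became -0.96 without control 1 and -2.04 without control 3. The controls were less spread in TRINITY_DN2739_c1_g1, whose transcripts carried the names PERK9 and NCRK and whose sum stood at 21.3, 17.5 and 14.2 in control and 3.76, 4.52 and 6.99 in IPA (log2 -1.72 ± 0.26). The cysteine-rich kinase gene TRINITY_DN872_c2_g1 stood at 94.7, 72.0 and 46.3 in control and at a steady 35.2, 33.9 and 33.4 in IPA (log2 -0.98 ± 0.24). TRINITY_DN112_c0_g1 stood at 48.4, 29.1 and 23.5 in control and 56.0, 59.3 and 63.5 in IPA. In each of these 3 genes the groups did not overlap.

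Of 6 genes named after peptide receptors of the LRR-XI subfamily of Arabidopsis, 5 had higher members and 1 a lower member, in a grouping by namesake made after the values were seen. BAM2, a relative of the meristem receptor CLAVATA1 that binds CLE peptides in Arabidopsis, stood at 29.5, 36.2 and 32.7 in control 1, 2 and 3 and at 84.3, 103 and 90.6 in IPA 1, 2 and 3 in TRINITY_DN3525_c0_g1. The groups were far apart and tight (log2 1.49 ± 0.17). Both BAM2 transcripts of a further gene, TRINITY_DN9039_c0_g1, were also higher (log2 1.25 ± 0.18 and 1.22 ± 0.18). TDR, the receptor of the peptide that keeps vascular stem cells dividing in Arabidopsis, stood at 1.75, 2.67 and 4.96 in control and at 6.06, 8.39 and 10.3 in IPA (log2 1.34 ± 0.32). Its lowest treated value lay just above its highest control.

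Other kinases of that subfamily were low. SKM1 stood at 0.151, 0.763 and 0.458 in control 1, 2 and 3 and at 1.52, 1.19 and 1.66 in IPA 1, 2 and 3 (log2 1.08 ± 0.26). FLORAL ORGAN NUMBER1, the rice counterpart of CLAVATA1, stood at 0.639 ± 0.316 in control and 1.51 ± 0.490 in IPA (SD, n = 3), with no overlap. The exception in direction was Receptor-like protein kinase 5, known in Arabidopsis as HAESA, the receptor that drives shedding of floral organs, at 5.37, 3.50 and 2.58 in control and 1.78, 2.01 and 1.83 in IPA (log2 -0.81 ± 0.24). Groups by namesake include members whose description names no ectodomain.

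Kinases of the LRR-III subfamily were higher in 9 of 9 genes (12 of 12 transcripts, no group overlap). The grouping was again made after the values were seen. Many kinases of that subfamily lack residues needed for catalysis and act as partners of other proteins. Among the 85 higher members of all types 82 had no overlap, and 16.6% of all transcripts tested were higher without overlap. At5g10020 stood at 14.9, 27.6 and 26.4 in control 1, 2 and 3 and at 41.5, 52.8 and 61.1 in IPA 1, 2 and 3 in TRINITY_DN6304_c0_g1 (log2 1.19 ± 0.25). Receptor protein kinase-like protein At4g34220 stood at 2.14, 3.31 and 4.23 in control and at 7.18, 11.7 and 10.5 in IPA in TRINITY_DN7278_c0_g1 (log2 1.48 ± 0.26). ZAR1, needed for the first division of the Arabidopsis zygote, stood at 0.332, 1.11 and 0.823 in control and 3.27, 2.91 and 1.83 in IPA (log2 1.36 ± 0.28). None of the 12 had a treated library below a control. Over all types, 11 members had the word inactive in their description, and 10 of them were higher. The lower member, At3g56050, stood at 156, 200 and 72.0 in control and 58.4, 70.7 and 69.3 in IPA (log2 -0.98 ± 0.33), with control 3 beside the treated values.

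The LRR-I subfamily, whose members carry a malectin-like domain beside the repeats and include defence-induced kinases in Arabidopsis, had lower members in 11 of 13 genes and 28 of 37 transcripts, on a grouping made after the values were seen. The sums over all isoforms of the 13 genes lay below 0 in 11, but 5 passed limma as lower and 2 as higher. Over all gene sums 10.3% passed in either direction, and these 13 genes had been selected in the same contrast. In some lower genes the members held little of their gene's level, and in others, such as TRINITY_DN13592_c0_g1 (84.6% in control), most of it. In TRINITY_DN4133_c0_g1 the lower member held 2.09% of the control level and the sum had a log2 fold change of -0.03 ± 0.62. PAM74 stood at 4.95, 2.45 and 1.60 in control 1, 2 and 3 and at 0.115, 0.368 and 0.148 in IPA 1, 2 and 3. The groups did not overlap, and control 1 was the highest (log2 -2.20 ± 0.32, the largest fall among the members on the log2(value + 0.5) scale). PAM74 is an isoform of TRINITY_DN6279_c0_g1, whose 3 members held 9.08% of the gene's control level, and the gene's sum had a log2 fold change of -0.63 ± 0.38 with overlapping groups. At2g28960 in TRINITY_DN13592_c0_g1 stood at 5.95, 3.21 and 1.24 in control and 0.488, 0.491 and 0.692 in IPA (log2 -1.72 ± 0.40). At2g19230 stood at 56.1, 27.3 and 23.1 in control and 13.8, 14.4 and 18.0 in IPA (log2 -1.08 ± 0.30). Control 1 was again the highest library for each of these. The LRR-I genes that were higher were TRINITY_DN112_c0_g1 and TRINITY_DN6028_c0_g1, both with transcripts described as At1g05700, with sums at log2 0.88 ± 0.24 and 1.18 ± 0.24.

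Further members with leucine-rich repeats, named for their known roles after the values were seen, went both ways. SOBIR1, an adaptor kinase that partners receptor-like proteins without a kinase, stood at 5.98, 4.29 and 2.70 in control 1, 2 and 3 and at 7.87, 11.0 and 19.3 in IPA 1, 2 and 3 (log2 1.42 ± 0.34). TMK2, of a family tied to auxin responses at the cell surface in Arabidopsis, stood at 19.2, 23.7 and 16.8 in control and 35.6, 46.1 and 44.6 in IPA (log2 1.07 ± 0.19). At1g14390 stood at 19.7, 22.9 and 18.9 in control and 43.1, 58.4 and 64.1 in IPA (log2 1.39 ± 0.19). These 3 had no overlap between groups. RPK2, which acts in meristem signalling, had a gene with 2 higher transcripts (log2 1.09 ± 0.32 and 1.07 ± 0.30). The sum of that gene stood at 27.4, 39.3 and 50.8 in control and 107, 101 and 50.4 in IPA. Its groups overlapped, with IPA 3 just below control 3. Another RPK2 gene had a lower transcript (log2 -0.98 ± 0.20). The hydrogen peroxide sensor HPCA1 stood at 0.453, 0.573 and 0.252 in control and 0.172, 0.0409 and 0.0494 in IPA, which is near the floor of 3 reads (0.0614 to 0.0954).

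Malectin-like and LysM receptors were higher in every member. FERONIA, which senses RALF peptides and the state of the wall and steers growth, stood at 15.8, 21.8 and 21.5 in control 1, 2 and 3 and at 42.5, 54.2 and 54.5 in IPA 1, 2 and 3 (log2 1.34 ± 0.19), and its other transcript had a log2 fold change of 1.37 ± 0.25. THESEUS 1, a sensor of wall damage, stood at 10.5, 9.32 and 7.23 in control and 17.0, 27.1 and 46.1 in IPA in TRINITY_DN2485_c0_g1 (log2 1.58 ± 0.32). Its treated libraries spread widely, with IPA 3 the highest. In TRINITY_DN90_c1_g1 THESEUS 1 went from 2.76 ± 1.27 to 5.83 ± 1.65 with overlapping groups. The LysM kinase, of a family that reads chitin-like sugars, stood at 19.7, 20.1 and 18.2 in control and 32.4, 50.0 and 74.2 in IPA in TRINITY_DN4895_c0_g1 (log2 1.33 ± 0.26). Both of its transcripts in TRINITY_DN9945_c0_g1 were higher too (log2 1.31 ± 0.28 and 1.14 ± 0.28). Receptor-like protein 36, which has repeats but no kinase, stood at 15.5, 17.3 and 12.5 in control and 35.7, 53.8 and 98.0 in IPA (log2 1.90 ± 0.32).

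**Figure D4:**
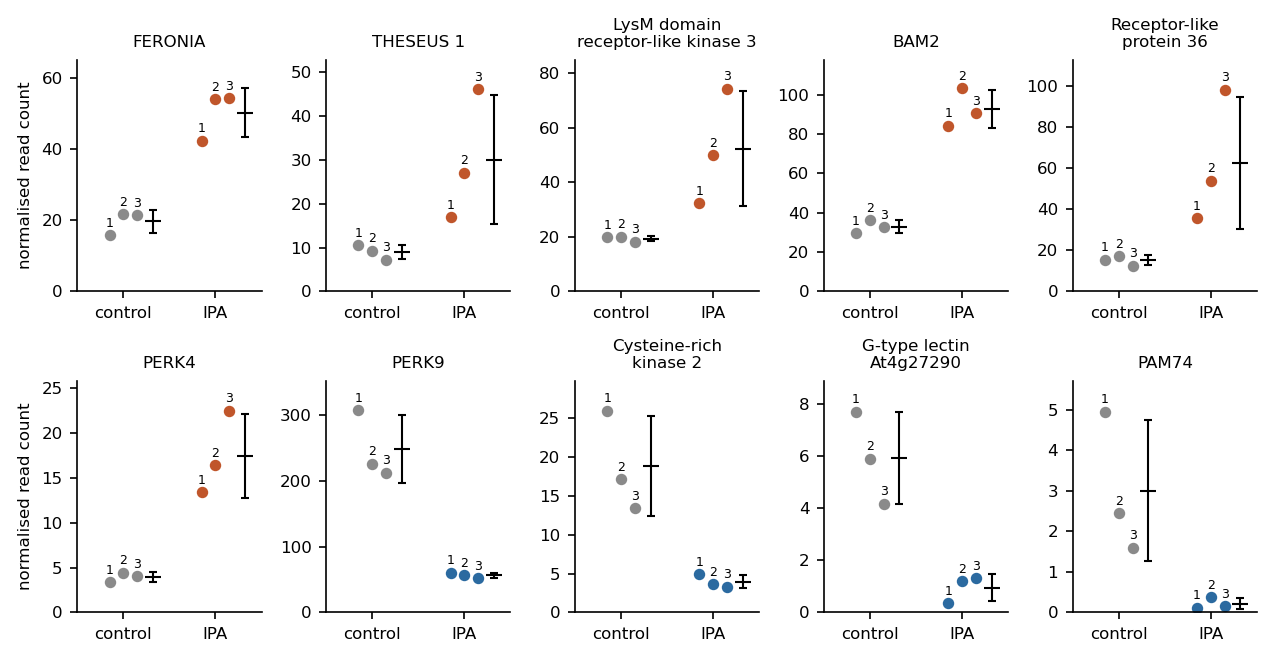
Normalised read counts (y axis from 0, own scale in each panel) of 10 members in the 3 control and 3 IPA libraries, numbered by replicate, with mean ± SD beside them. In each of the 10 the groups do not overlap, with IPA above control in FERONIA, THESEUS 1, the LysM kinase, BAM2, Receptor-like protein 36 and PERK4 and below it in PERK9, cysteine-rich kinase 2, At4g27290 and PAM74.

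Cysteine-rich receptor-like kinases, a plant family often induced by pathogens and oxidative stress in Arabidopsis, were lower in 29 of 33 transcripts and 10 of 12 genes. TRINITY_DN872_c2_g1 held 9 of the lower transcripts and TRINITY_DN4642_c0_g1 held 7. Summed over isoforms, 10 of the 12 genes lay below 0, but 5 passed limma as lower and 2 as higher. Of all gene sums 10.3% passed in either direction, and these genes had been selected in the same contrast. In TRINITY_DN4234_c0_g2 the lower member held 17.4% of the control level, and the sum had overlapping groups (log2 -0.37 ± 0.29). CRK2 (Cysteine-rich receptor-like protein kinase 2) stood at 26.0, 17.2 and 13.5 in control 1, 2 and 3 and at 4.97, 3.64 and 3.34 in IPA 1, 2 and 3 for the transcript of TRINITY_DN4642_c0_g1 with the largest change (log2 -2.08 ± 0.25). The sum over that gene stood at 110, 82.0 and 59.9 in control and 37.7, 29.2 and 16.8 in IPA (log2 -1.60 ± 0.30). The groups were apart, and control 1 was the highest. CRK42 went from 4.83 ± 2.53 to 1.36 ± 0.217 (log2 -1.41 ± 0.31) and CRK10 in TRINITY_DN267_c2_g1 from 3.52 ± 0.991 to 1.12 ± 0.166 (log2 -1.29 ± 0.23). The members that were higher all carried the description CRK43. It stood at 4.62, 4.71 and 4.60 in control and 12.8, 14.0 and 22.5 in IPA in TRINITY_DN1343_c0_g1 (log2 1.68 ± 0.22), and at 1.24, 0.763 and 1.35 against 4.02, 5.77 and 7.74 in TRINITY_DN4234_c2_g1 (log2 1.95 ± 0.26).

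G-type lectin kinases, relatives of the S-locus receptor of self-incompatibility, had lower members in 8 of 11 genes and 10 of 13 transcripts. Summed over isoforms, 7 of the 11 genes, which had been selected in the same contrast, lay below 0. Limma passed 6 as lower and 1 as higher, against 10.3% of all gene sums in either direction. Among those 6 was TRINITY_DN11330_c0_g1, of whose 43 members 41 were leucine-rich repeat by description. At4g27290 stood at 7.70, 5.88 and 4.16 in control 1, 2 and 3 and at 0.345, 1.19 and 1.31 in IPA 1, 2 and 3 (log2 -2.19 ± 0.32). RLK1 went from 2.65 ± 1.22 to 0.592 ± 0.157 (log2 -1.46 ± 0.28) and At1g67520 from 1.96 ± 0.292 to 0.635 ± 0.0585 (log2 -1.11 ± 0.20), without overlap. The RLK1 transcript held 16.7% of its gene's control level, and the sum of that gene, TRINITY_DN5234_c0_g1, went the other way (log2 0.16 ± 0.30). SD3-1 had a higher transcript in each of 2 genes. It stood at 8.45, 7.48 and 5.79 in control and 17.0, 25.8 and 31.0 in IPA in TRINITY_DN9590_c0_g1 (log2 1.67 ± 0.24), and went from 4.24 ± 1.66 to 11.8 ± 5.87 in TRINITY_DN4390_c0_g1. That gene as a whole stood at 22.1, 17.6 and 20.1 in control and 18.2, 21.3 and 42.7 in IPA, with overlapping groups (log2 0.36 ± 0.29). L-type lectin kinases had a higher member, S.1 (log2 1.09 ± 0.29), and a lower one, IV.2 (log2 -0.95 ± 0.23).

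Proline-rich receptor-like kinases (PERKs), whose ectodomain resembles the wall protein extensin, had 12 higher and 11 lower transcripts. PERK9 in TRINITY_DN6243_c1_g1 stood at 308, 227 and 213 in control 1, 2 and 3 and at 60.7, 56.5 and 52.3 in IPA 1, 2 and 3 (log2 -2.11 ± 0.19). All 7 PERK9 transcripts, from 3 genes, were lower. PERK4 was higher in all 5 transcripts of 2 genes, and stood at 3.38, 4.42 and 4.03 in control and 13.4, 16.4 and 22.5 in IPA in TRINITY_DN9214_c0_g1 (log2 1.99 ± 0.22, the largest rise among the members on the log2(value + 0.5) scale, though not in the authors' deposited table). PERK10 stood at 22.2, 12.0 and 13.3 in control and 33.8, 45.2 and 65.1 in IPA (log2 1.57 ± 0.28). PERK1 stood at 55.9, 32.7 and 21.8 in control and 67.3, 90.4 and 116 in IPA (log2 1.37 ± 0.33), where control 1 approached IPA 1. PERK13 had 2 higher transcripts (log2 1.30 ± 0.24 and 1.04 ± 0.18) and a lower one in TRINITY_DN8759_c2_g1 at 3.47, 5.85 and 3.91 in control and 0.833, 0.819 and 0.865 in IPA (log2 -1.85 ± 0.22). PERK6 went from 5.65 ± 5.23 to 1.24 ± 0.598, with control 1 at 11.7 and the other controls at 2.99 and 2.29.

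Wall-associated kinases, which bind pectin, had 7 higher and 5 lower transcripts, but all 7 higher ones came from the single gene TRINITY_DN11949_c1_g1, and the 5 lower ones from 4 genes. The sum of TRINITY_DN11949_c1_g1 stood at 75.5, 46.3 and 39.5 in control 1, 2 and 3 and at 76.4, 107 and 149 in IPA 1, 2 and 3 (log2 1.04 ± 0.29). Control 1 and IPA 1 were nearly equal there, and without control 1 the log2 fold change was 1.31. Among the lower members, wall-associated kinase-like 6 in TRINITY_DN24936_c2_g1 stood at 6.04, 15.1 and 12.3 in control and 2.38, 2.03 and 3.39 in IPA (log2 -1.84 ± 0.31), and wall-associated kinase-like 15 in TRINITY_DN2045_c0_g1 at 15.4, 9.48 and 7.34 in control and 3.94, 3.36 and 5.12 in IPA (log2 -1.23 ± 0.27). Neither transcript had overlapping groups. The members of TRINITY_DN2045_c0_g1 held 43.1% of the gene's control level. Summed over isoforms, that gene stood at 81.8, 50.4 and 33.9 in control and 19.4, 21.1 and 43.2 in IPA. The groups of that sum overlapped (log2 -0.98 ± 0.36). Wall-associated receptor kinase 5 went from 1.18 ± 0.449 to 0.409 ± 0.0994.

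The remaining types had few members. The cytoplasmic kinase CRCK3, a calmodulin-binding member without an ectodomain, went from 2.58 ± 0.358 to 1.27 ± 0.253 (log2 -0.80 ± 0.21), and RBK1, which binds ROP GTPases, from 0.128 ± 0.00833 to 0.431 ± 0.0629 (log2 0.57 ± 0.18). The CRCK3 transcript was 1 of 15 isoforms of TRINITY_DN2182_c0_g1 and held 4.05% of its control level. The sum of that gene went from 63.7 ± 8.67 to 42.0 ± 4.71 (log2 -0.59 ± 0.17). The leaf rust 10-like kinase 2.3 went from 0.803 ± 0.541 to 0.137 ± 0.0744. For 25 members, 10 higher and 15 lower, the description named no ectodomain. Among them ZmPK1, a maize S-domain kinase, went from 3.16 ± 0.546 to 0.873 ± 0.337 (log2 -1.43 ± 0.24). The other isoform of its gene, TRINITY_DN7446_c0_g1, had a log2 fold change of 0.53, and their sum one of -0.12 ± 0.29. NCRK, all 4 transcripts of which were lower, went from 1.01 ± 0.149 to 0.181 ± 0.0626 in the transcript with the largest change (log2 -1.14 ± 0.19). At5g59670 in TRINITY_DN37491_c0_g1 went from 1.79 ± 1.21 to 0.271 ± 0.129 (log2 -1.45 ± 0.34).

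The libraries within a group were not alike for these transcripts. In 83.5% of the 139 lower members control 1 was the highest control, and in 77.0% control 3 was the lowest, nearest the treated level. Of these 139, 43 were isoforms of TRINITY_DN11330_c0_g1 and not independent observations. Each of them counts singly in these shares and in the coefficient of variation below. Over all falling transcripts of the authors' list control 1 was the highest in 74.95%. Among the 85 higher members IPA 3 was the highest treated library in 74.1% and IPA 1 the lowest in 78.8%, and over all rising transcripts of the list IPA 3 was the highest in 61.3%. The median coefficient of variation among controls was 49.3% for the lower members and 29.0% for the higher ones. Without control 1, 99 members changed at least 2-fold against 151 with all libraries, and without control 3 it was 177. The direction of all 224 stayed the same without any single library. Because the list chose members by their change in these same libraries, nothing is read from that.

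**Figure D5:**
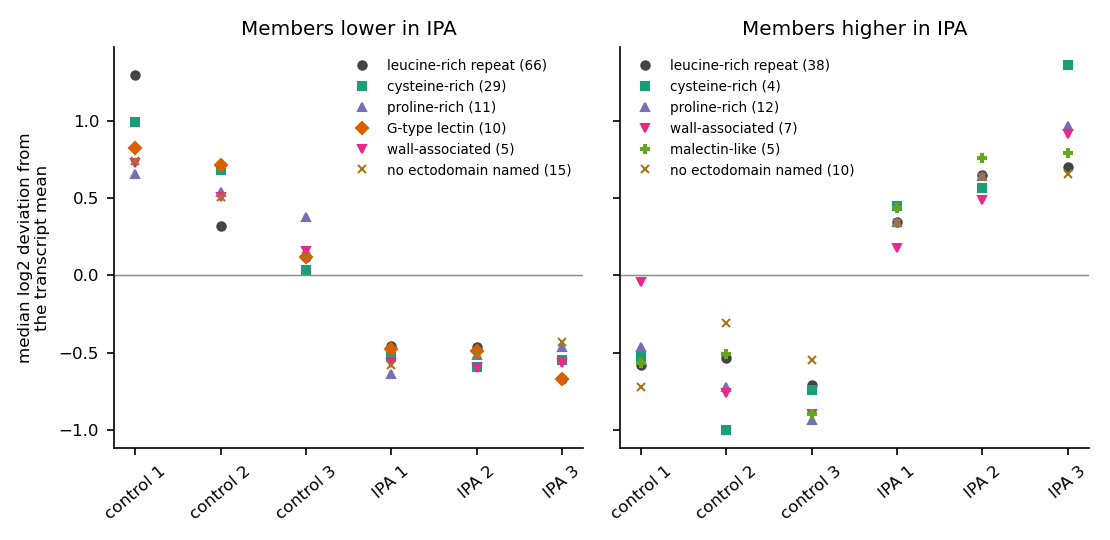
Median over members of the log2 level relative to each transcript's mean over the 6 libraries (y axis), by library (x axis), for types with at least 4 members lower (left) or higher (right) in IPA. For the lower leucine-rich repeat members control 1 stands at 1.30, control 2 at 0.32 and control 3 at 0.12, while the 3 IPA libraries lie between -0.67 and -0.46. Of these 66 members, 41 are isoforms of TRINITY_DN11330_c0_g1.

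Other genes of receptor kinase signalling were taken from the same list, chosen on these samples, so their counts are described in the same way. Over all transcripts tested limma called 4.49% higher and 3.87% lower, and nothing is read from the larger shares among listed transcripts. Of 5 transcripts for RALF peptides, ligands of FERONIA-type receptors, 4 were higher and passed limma's adjusted p of 0.05 and 1 was lower and did not. Rapid alkalinization factor stood at 3.38, 2.96 and 3.87 in control 1, 2 and 3 and at 7.21, 8.93 and 10.2 in IPA 1, 2 and 3 (log2 1.24 ± 0.20), and the 3 transcripts of RALF-like 34 had log2 fold changes of 0.94 to 1.18. These 4 are isoforms of a single Trinity gene. Like the FERONIA transcripts, they were higher in all 3 treated libraries. The single brassinosteroid receptor kinase left out by the rule was higher (log2 1.03 ± 0.26).

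All 3 transcripts, from 2 genes, of respiratory burst oxidases, which make extracellular superoxide downstream of many receptor kinases, were lower and passed, where 3.87% of all transcripts did. RBOH A stood at 41.0, 35.7 and 20.5 in control 1, 2 and 3 and at 9.68, 6.82 and 3.44 in IPA 1, 2 and 3 (log2 -2.25 ± 0.36), and RBOH C at 215, 161 and 78.3 against 64.8, 58.1 and 40.3 (log2 -1.38 ± 0.35). In both, control 3 was the lowest control. Both ROP GTPase transcripts, switches that receptor kinases act on, were lower and passed, ARAC10 at 71.2, 60.4 and 46.4 in control and 25.9, 27.0 and 28.9 in IPA (log2 -1.09 ± 0.19).

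The cytoplasmic kinases that relay receptor signals went both ways, with 5 of 13 transcripts higher and 8 lower. Of these, 5 and 6 passed limma (4.49 and 3.87% of all transcripts). The 13 transcripts came from 7 Trinity genes. PBL16 had 4 lower isoforms of TRINITY_DN3134_c3_g1, led by 3.33 ± 0.409 in control against 0.704 ± 0.257 in IPA (log2 -1.69 ± 0.22). PBL8 had 2 higher isoforms of TRINITY_DN5510_c0_g1 and 3 lower transcripts from TRINITY_DN12129_c0_g1 and TRINITY_DN11366_c1_g1. PBL22 went from 75.4 ± 7.71 to 155 ± 19.4 (log2 1.03 ± 0.18). The mitogen-activated protein kinase cascade had 4 higher and 5 lower of 9 transcripts from 8 genes, of which 4 and 2 passed. It was led by MAP kinase kinase kinase 4 at 27.9 ± 13.7 in control and 6.43 ± 0.458 in IPA (log2 -1.91 ± 0.33). Calcium-permeable channels of the cyclic nucleotide-gated and glutamate receptor families had 2 higher and 8 lower of 10 transcripts from 8 genes. Of these, 2 and 4 passed, led by glutamate receptor 2.9 at 2.20 ± 1.52 in control and 0.197 ± 0.0463 in IPA (log2 -1.82 ± 0.33).

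The authors' list took transcripts with an FDR below 0.05 and a change of at least 2-fold. Just inside it, SD1-1 in TRINITY_DN5259_c5_g1 had an FDR of 0.0495 and At2g04300 one of 0.0492, and the smallest changes were log2 -1.01 for CRCK3 and 1.01 for a PERK4 transcript, all in the authors' deposited table. Just outside, edgeR's likelihood-ratio test on recovered reads gave isoforms of member genes an FDR of 0.0510 (TRINITY_DN2739_c1_g1_i30) and 0.0535 (TRINITY_DN11330_c0_g1_i24), and log2 changes of 0.99 (TRINITY_DN3740_c1_g1_i6) and 0.98 (TRINITY_DN112_c0_g1_i10).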

How the data were processed

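RNA of ground, lyophilised Lemna aequinoctialis was extracted with a plant RNA kit and sequenced as stranded poly(A) libraries with 150-bp paired ends, per the labels' protocols. The authors deposited a table of transcripts assembled by Trinity, per the feature names, whose values are a normalised read count (a signal scaled per library). The submitters' processing notes name FastQC, Trimmomatic, BWA, featureCounts and edgeR, without roles or versions. Per the file headers, the deposited list also holds log2 ratios of IPA to control and average log2 CPM. Beside them the authors deposited the score of a likelihood-ratio test, its p-value and its FDR.

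Every deposited value was a whole multiple of 1 read's worth (100% within 0.01 reads, largest deviation 0.00130), so whole reads were recovered, and the list gave the same reads in 30558 of 30558 cases. The design had foreseen raw counts, or limma for another unit, and limma (3.58.1, R 4.3.3; trend, robust) on log2(value + 0.5) was used. The fit ran on 78722 transcripts kept by filterByExpr of edgeR 4.0.16 (minimum count 10, total 15), with Benjamini-Hochberg adjustment at 0.05. With whole reads as input, the edgeR quasi-likelihood fit gave 6393 calls (8.12%), and limma gave 6587. Steps were tested on simulated data.

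Ectodomain types came from the wording of descriptions and a list of protein names. Named in each type were up to 3 members with the largest rise and fall among those with a mean of at least 1 in a group (1 per Trinity gene), the highest in level, all members of types with 3 or fewer, up to 3 of descriptions going both ways and those nearest the thresholds. Subfamilies and other names were chosen after values were seen. The members and lists were chosen with earlier results of these data known. Alternatives were other pseudocounts, filters, scalings and tests, a replicate block, and leaving out each library. Replicates of a group differed by more than sampling noise. Columns of other samples numbered 0. No genome or sequences were used.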

Additional observations from a re-analysis of the deposited data

How the results depend on the processing

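No member changed sign in any of 14 alternative fits, but members had been selected for their change in these libraries, so nothing is read from that. The 54 named members moved by more than the spread between replicates in 66 of 756 comparisons. DESeq2 called 135 members lower. Leaving out 1 library gave 26 to 185 members called in all, 15 to 68 higher and 11 to 120 lower. Over all 78722 transcripts tested, DESeq2 called 10358 in either direction, and leaving out 1 library gave 1293 to 10421. The median of leucine-rich repeat members was -1.63 with DESeq2, -1.60 with edgeR's quasi-likelihood test and -1.29 with pseudocount 0.1, and ranged from -1.14 to -0.53 without 1 library. It reversed to 1.04 with 1 transcript per Trinity gene and to 1.03 without the gene with most members, which takes 41 of the 104 leucine-rich repeat transcripts, all lower, out of the count. The median of the other types was -1.15 with DESeq2, -1.13 with edgeR, -0.66 with library totals (which moved the median of all transcripts from 0.02 to 0.25) and -0.63 with pseudocount 1, and -1.05 to -0.69 without 1 library. The cause of these was not tested, apart from the pseudocount, which shrinks changes of low transcripts by construction. Whether the replicate numbers pair samples is not in the labels. Levels relative to their group mean correlated at -0.09, 0.08 and -0.13 between control and IPA libraries of numbers 1, 2 and 3. Libraries of unlike number gave -0.09 to 0.13. With 3 libraries in each group these correlations depend on each other and cannot decide the question. A replicate block called 112 members, and 4377 of all transcripts tested. Adding types from namesakes, chosen after seeing the data, gave -0.89 and -0.91. Levels were low, with a mean below 1, for 99 members in IPA and 36 in control, and 1 member had all IPA values under the 3-read floor.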
